A study of Mus musculus with 24 samples.

Results

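The genes described here are 41 listed genes of the DNA replication machinery, followed by their symbols across naive CD4 T cells that were rested or stimulated. Of these, 40 were measured, out of 22180 genes measured in all. Rfc4, a subunit of the clamp loader, is annotated only on a probe set shared with another gene and was not analysed here. The 40 fall by role into 11 genes of origin licensing, 8 of helicase activation, 8 of the polymerases and primase, 5 of the clamp and clamp loader, 5 of single-strand binding and Okazaki fragment joining, and 3 of deoxynucleotide synthesis.

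The samples were mouse naive CD4 T cells lacking TRIM28 (KO), set against such cells from littermates with intact TRIM28 (WT, wild type). The protein is a co-repressor that gathers chromatin-silencing enzymes at its targets. Cells were enriched on magnets and sorted, then left unstimulated (0 h) or stimulated through plate-bound anti-CD3 and soluble anti-CD28 for 4, 24 or 72 h. Each of the 8 combinations of genotype and time had 3 Affymetrix arrays, 24 in all. The labels name no allele, Cre driver, age or sort gate. They do not tie arrays to animals. By sex-linked genes the array numbered 3 in every group has the male pattern and those numbered 1 and 2 the female pattern, so each group holds RNA of at least 2 animals. Whether numbers 1 and 2 are separate animals is not stated. Each p-value rests on how far arrays of a group differ, and some of that variation may be technical.

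Replication starts at origins, where the origin recognition complex, CDC6 and CDT1 load the ring of MCM2 to MCM7 onto DNA in G1. The kinase CDC7 with its activator DBF4, together with MCM10, CDC45 and the GINS complex, turns the loaded ring into a moving helicase at the start of S phase. Polymerase alpha with primase then primes synthesis, polymerases epsilon and delta extend it on the PCNA clamp, and ribonucleotide reductase and thymidylate synthase supply deoxynucleotides. A resting naive T cell sits in G0 and keeps many of these genes low until antigen receptor stimulation brings it into the cell cycle. Many of them carry E2F sites at their promoters, through which the retinoblastoma proteins hold them down in resting cells.

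The promoters are shown first because this E2F word is a sequence feature that the choice of genes did not use. RefSeq promoter windows (GRCm38.p6, 250 bases before to 50 bases after a start) were found for 34 of the 41 listed genes. An E2F word (TTTCCCGC, TTTCGCGC, TTTGCCGC or TTTGGCGC, on either strand) stood in a window of 13 of the 34 genes, or 38.2%, against 704 of 27025 genes with windows, or 2.6%. The CCAAT word, on either strand, was in 22 of the 34 genes, or 64.7%, against 41.1% of all. Mcm5 holds 2 E2F words that overlap on opposite strands, and 1 of them is printed. Mcm6 holds 3, of which those at offsets -110 and -106 from the start overlap on opposite strands. The Mcm6 word printed is the one at -47, which overlaps with neither. Mcm3, Mcm7 and Rfc3 hold 2 words each, which do not overlap, and 1 of each is in capitals. The other Rfc3 word, at offset -10 on the opposite strand, stands in lowercase in the printed flank. A match says only that these letters are in the window. For each of the 13 genes 1 word with its flanking bases is printed, read on the strand on which it has this form, with the word in capitals. The Cdt1 and Pold1 lines are shorter because the window ends there.
Cdc6, chr11:98908002-98908031, minus strand: accccaggcgaTTTCCCGCtctccaccggc
Cdt1, chr8:122568036-122568064, plus strand: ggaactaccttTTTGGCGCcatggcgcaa
Gins3, chr8:95633507-95633536, minus strand: ttcaaactcgcTTTCCCGCgccgcactcgc
Lig1, chr7:13278841-13278870, minus strand: cgccacacagaTTTCGCGCgcactttggcg
Mcm3, chr1:20820275-20820304, plus strand: acttcccaagtTTTCCCGCcacggaagttt
Mcm5, chr8:75109349-75109378, minus strand: aggctggacgtTTTGGCGCgaaagttcttg
Mcm6, chr1:128359734-128359763, minus strand: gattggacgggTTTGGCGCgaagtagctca
Mcm7, chr5:138171849-138171878, minus strand: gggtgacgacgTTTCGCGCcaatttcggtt
Orc1, chr4:108579416-108579445, minus strand: aggagaaaactTTTCGCGCcactaaccgaa
Pola1, chrX:93632275-93632304, plus strand: gcgggagtgcaTTTGGCGCcctgtgatgac
Pold1, chr7:44548766-44548787, plus strand: gctTTTCCCGCcacaagatacg
Pole2, chr12:69228162-69228191, plus strand: catgttcgcgaTTTGGCGCcaccgccgacg
Rfc3, chr5:151651190-151651219, plus strand: gacagtagagtTTTCCCGCgagcgcgaaag

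Of the 13 genes, Orc1 and Pola1 passed the threshold for KO against WT at 24 h (adjusted p below 0.05, as defined with the values), and their 250 bases before the start are given on the strand of the gene, with the word in capitals as it reads there. On the strand of the gene the word begins 27 bases before the Orc1 start and 138 bases before the Pola1 start.
Orc1, chr4:108579204-108579453, plus strand: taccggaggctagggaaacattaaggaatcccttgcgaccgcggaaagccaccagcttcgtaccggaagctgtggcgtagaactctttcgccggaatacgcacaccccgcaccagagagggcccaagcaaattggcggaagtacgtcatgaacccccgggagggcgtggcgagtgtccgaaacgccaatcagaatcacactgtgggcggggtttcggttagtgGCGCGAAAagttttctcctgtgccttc
Pola1, chrX:93632156-93632405, minus strand: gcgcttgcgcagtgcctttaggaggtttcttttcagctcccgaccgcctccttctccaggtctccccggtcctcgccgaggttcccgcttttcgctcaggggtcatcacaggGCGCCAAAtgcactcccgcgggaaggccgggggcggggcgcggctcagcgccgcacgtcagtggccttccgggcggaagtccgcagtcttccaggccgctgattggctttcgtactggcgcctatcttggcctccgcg

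The deposited values are log2 intensities normalised together by the authors, so each value is a log2 level of 1 gene and each change is a difference of log2 levels, KO minus WT or later minus earlier time. Each change compares levels of the same probe set only. A gene counts as changed where limma's adjusted p over all 22180 genes is below 0.05. Trim28 itself lay between 4.93 and 5.80 on the 12 KO arrays, against 7.71 to 9.26 on the 12 WT arrays, without overlap. The T cell markers were high on every array, with array medians of 10.65 to 10.96 in KO and 10.48 to 11.16 in WT over 6 genes, Cd4 and Cd3e among them. This median was wholly lower in KO at 0 h (10.79 to 10.96 in KO, 11.05 to 11.16 in WT) and wholly higher in KO at 72 h (10.65 to 10.81 in KO, 10.48 to 10.52 in WT), and it overlapped at 4 and 24 h. Among the 6, Cd5 was called lower at 0 h (-0.35). In bulk samples fewer cells of a type and less RNA per cell cannot be told apart.

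Stimulation raised the replication genes late. Every one of the 40 was higher at 24 h than at 4 h in KO and in WT, where 15.3% and 21.2% of all genes rose. The median step over the 40 was 2.09 in KO and 2.41 in WT on the log2 scale. The median of the 40 levels on an array ran through 6.50 to 6.66, 6.58 to 6.67, 8.37 to 8.50 and 8.27 to 8.34 at 0, 4, 24 and 72 h in KO. In WT it ran through 6.51 to 6.54, 6.35 to 6.68, 8.65 to 8.67 and 8.15 to 8.21. The KO and WT arrays overlapped in this median at 0 and 4 h, stood apart with KO lower at 24 h, and stood apart with KO higher at 72 h.

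**Figure D1:**
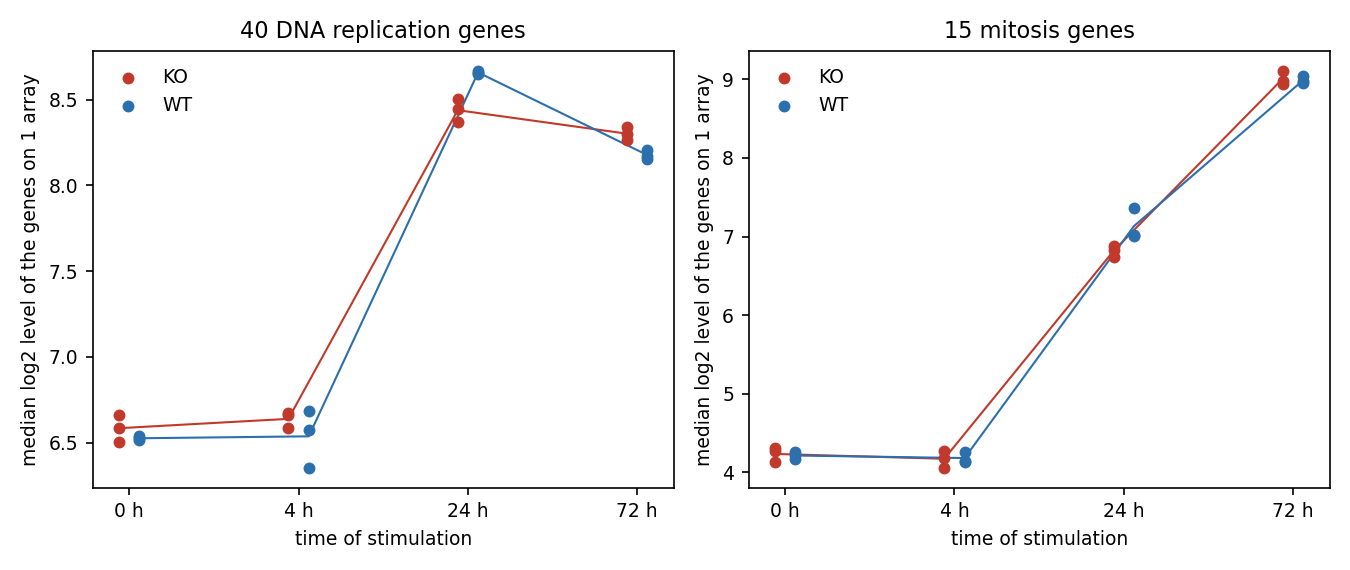
Median log2 level of the 40 replication genes (left) and of 15 mitosis genes (right) on each array, by time of stimulation in hours, with KO (red) set left of WT (blue) at each time; lines join the mean of 3 arrays. For the replication genes the KO arrays lie below the WT arrays at 24 h (8.37 to 8.50 against 8.65 to 8.67) and above them at 72 h (8.27 to 8.34 against 8.15 to 8.21), while the mitosis genes are higher at 72 h than at 24 h in both genotypes.

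The members with the largest rise by role had these values. Mcm10, which links the helicase to polymerase alpha, went through means of 3.70, 3.64, 8.16 and 8.20 at 0, 4, 24 and 72 h in KO. In WT its means were 3.41, 3.64, 8.67 and 8.12. Its change at 24 h against 0 h was 4.46 in KO and 5.25 in WT. Cdc6, the loader of the MCM ring, gained 4.36 in KO and 4.55 in WT over the same 24 h. Rrm2, the regulated subunit of ribonucleotide reductase, gained 3.83 in KO and 4.24 in WT. Pole, the catalytic subunit of polymerase epsilon, gained 3.91 in KO and 4.03 in WT. Lig1, which joins Okazaki fragments, gained 3.18 in KO and 3.46 in WT, and Rfc3, a clamp loader subunit, 2.60 in KO and 2.87 in WT. At the other end Rpa1, the largest subunit of the single-strand binding protein, gained 0.37 in KO and 0.47 in WT, from a resting level of 8.40 in KO and 8.29 in WT. Pole, Rrm2 and Rpa1 each have a second probe set, of mean level 3.11, 2.98 and 3.21. Those probe sets gained 0.50, 0.78 and 0.30 in WT over the same 24 h, less than the ones used.

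The first 4 h moved the genes in both directions. In KO 11 rose and 10 fell, where 15.1% of all genes rose and 16% fell. In WT 13 rose and 13 fell, where 16.8% of all genes rose and 17.8% fell. The median gene had a mean level of 3.72 and the lowest member 4.97. Shares among genes at or above that member's level are not given here for steps within a genotype. The 11 that rose in KO and the 10 that fell in KO had the same direction and passed the threshold in WT too. Orc2, part of the origin recognition complex, stood at 7.68, 7.96 and 7.74 at 4 h, above 6.85, 6.71 and 6.85 at 0 h, on the KO arrays. On the WT arrays it stood at 7.64, 7.82 and 7.79 at 4 h, above 6.62, 6.51 and 6.73 at 0 h. Its step of 0.99 in KO and 1.13 in WT came without overlap of the times. Pold2, the second subunit of polymerase delta, rose by 0.45 in KO and by 0.77 in WT. Gins3, a GINS subunit, fell by 0.75 in KO and by 0.73 in WT. Rpa1 fell by 0.53 in KO and by 0.89 in WT. The genotype difference in this first step passed the threshold for 0 of the 40 in limma (0.726% of all genes). At an unadjusted p below 0.05, 1 was higher and 2 were lower, and the share of all genes at this cut is not given here. No other test was run on this difference.

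At rest and at 4 h, KO and WT differed in few replication genes. At 0 h 1 of the 40 was lower in KO, where 2.34% of all genes were called and 0.577% were called lower. That gene was Dbf4, the activating subunit of the CDC7 kinase, at 6.09, 6.15 and 6.14 in KO against 6.50, 6.58 and 6.34 in WT. All KO values lay below all WT values, and the change was -0.35 (SE 0.10, adjusted p = 0.0475). The call held in 16 of the 36 alternative settings. At 4 h 1 of the 40 was higher in KO, where 4.13% of all genes were called and 3.3% were called higher. Rpa1 was at 8.04, 7.83 and 7.74 in KO, against 7.29, 7.43 and 7.50 in WT. Its groups did not overlap, with a change of 0.46 (SE 0.08, adjusted p = 0.000519). The median change over the 40 was 0.05 at 0 h and 0.00 at 4 h, and 0.00 over all genes at both times. Over the 8460 genes whose mean level was at or above that of the lowest member it was 0.04 at both times.

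At 24 h the replication genes that differed were lower in KO. Of the 40, 8 passed the threshold and all 8 were lower, while 11.3% of all genes were called and 7.38% were called lower. These were Orc1 and Orc6 of licensing, Mcm10 and Dbf4 of helicase activation, Pola1 and Pold2 of the polymerases, Rpa2 of single-strand binding and Rrm1 of deoxynucleotide synthesis. The 20% of members called lower was near the 16.6% called lower among the 8460 genes whose mean level was at or above that of the lowest member. The median change of the 40 was -0.21, against -0.05 over all genes and -0.09 over those 8460. By sign alone 39 of the 40 were lower, against 62.6% of all genes. Of the 6 T cell markers Cd3e, Cd3d and Cd3g were higher in KO at this time (0.20, 0.40 and 0.25). The 3 KO arrays lay wholly below the 3 WT arrays in 26 of the 40 and wholly above in 0, where 18.8% of all genes lay below and 8.37% above.

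Orc1, the largest subunit of the origin recognition complex, was at 6.31, 6.36 and 6.49 in KO and at 7.04, 6.90 and 7.18 in WT at 24 h. The KO values were all below the WT values, with a change of -0.65 (SE 0.13, adjusted p = 0.00138). Dbf4 was at 6.93, 6.95 and 7.13 in KO and at 7.68, 7.50 and 7.64 in WT. The groups were again apart, by -0.61 (SE 0.10, adjusted p = 0.000115). Mcm10 was at 8.02, 8.17 and 8.29 in KO and at 8.72, 8.63 and 8.66 in WT, a change of -0.51 (SE 0.14, adjusted p = 0.0199) without overlap. Rpa2, the middle subunit of the single-strand binding protein, was at 7.69, 7.95 and 7.97 in KO and at 8.34, 8.17 and 8.31 in WT. Its change was -0.40 (SE 0.10, adjusted p = 0.00648), also without overlap.

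The other 4 changes at 24 h were smaller, and none of the 4 overlapped between the groups. Pold2 was at 9.12, 9.06 and 9.16 in KO and at 9.50, 9.44 and 9.56 in WT, a change of -0.39 (adjusted p = 0.00688). Orc6, the smallest subunit of the origin recognition complex, was at 8.21, 8.27 and 8.37 in KO and at 8.74, 8.65 and 8.59 in WT, a change of -0.38 (adjusted p = 0.00325). Pola1, the catalytic subunit of polymerase alpha, was at 7.82, 8.002 and 8.06 in KO and at 8.31, 8.41 and 8.31 in WT, a change of -0.38 (adjusted p = 0.0471) whose call held in 15 of the 36 alternative settings. Rrm1, the large subunit of ribonucleotide reductase, was at 9.62, 9.71 and 9.77 in KO and at 10.00, 10.01 and 10.01 in WT, a change of -0.31 (adjusted p = 0.00391).

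The remaining 32 members at 24 h had these changes. The 6 MCM ring genes did not pass the threshold, with changes between -0.22 for Mcm3 and -0.05 for Mcm7. The 5 clamp and clamp loader genes lay between -0.31 for Rfc3 and -0.16 for Rfc2, none past the threshold. Gins3 at -0.38 and Cdc45, the helicase cofactor, at -0.36 had values as low as some called members, with SEs of 0.16 and 0.14. Rrm2 was at 8.44, 8.48 and 8.51 in KO and at 8.93, 8.65 and 9.05 in WT, apart between the groups, with a change of -0.40 (SE 0.17) that did not pass. Rpa3, the smallest subunit of the single-strand binding protein, has a second probe set of lower level, which changed by -0.58 where the one used changed by -0.18. Cdt1, the licensing partner of CDC6, was the member with a positive sign, at 0.00. By promoter word, the median change was -0.19 over 13 genes with it and -0.25 over 20 with a window and no word.

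**Figure D2:**
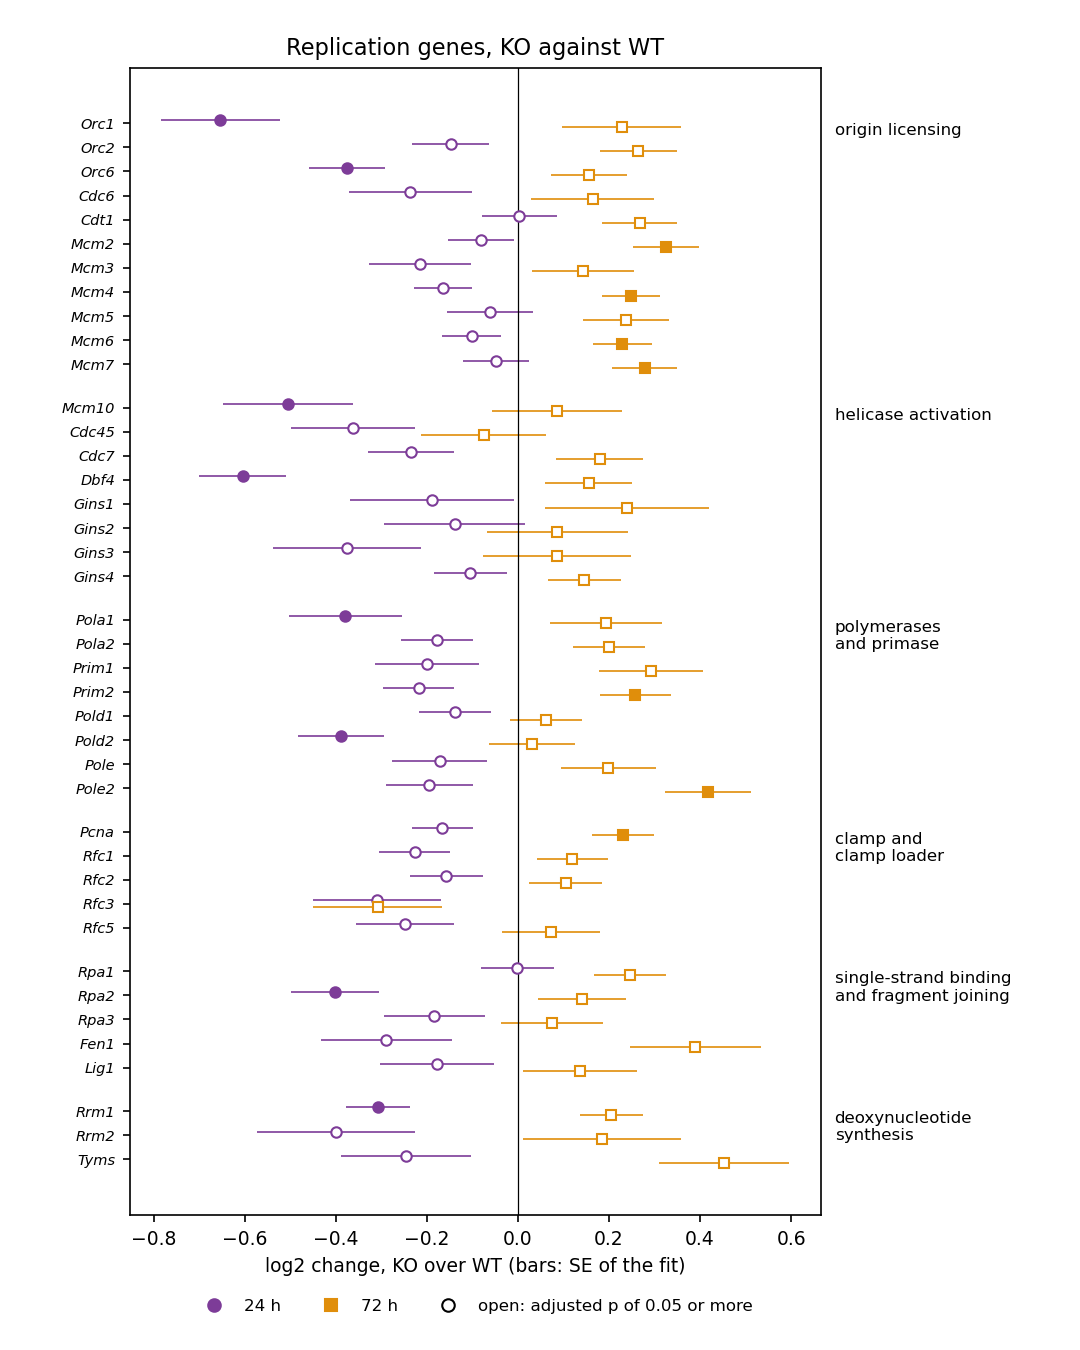
Log2 change of KO over WT for each of the 40 replication genes at 24 h (purple circles, drawn just above) and at 72 h (orange squares), grouped by role, with bars for the SE of the fit; filled symbols have an adjusted p below 0.05. At 24 h 39 of the 40 circles lie left of 0 and 8 are filled, and at 72 h 38 of the 40 squares lie right of 0 and 7 are filled.

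At 72 h the replication genes that differed were higher in KO. Of the 40, 7 passed the threshold and all 7 were higher in KO, while 6.33% of all genes were called and 2.56% were called higher, or 5.76% of the 8460. They were Mcm2, Mcm4, Mcm6 and Mcm7 of the MCM ring, Pole2 and Prim2 of the polymerases and primase, and Pcna, the sliding clamp. The median change of the 40 was 0.19, against 0.01 over all genes. By sign 38 of the 40 were higher, against 53% of all genes. The 6 T cell markers had a median change of 0.21 at this time, with 3 of the 6 higher (Cd3e, Cd3d and Cd3g at 0.35, 0.37 and 0.30), and their part in the result was not tested. The KO arrays lay wholly above the WT arrays in 29 of the 40 and wholly below in 1, where 12.5% of all genes lay above and 12% below. In 37 of the 40 the fitted mean was lower in KO at 24 h and higher at 72 h, against 32.8% of all genes. At an unadjusted p below 0.05, 16 were higher and 1 lower in the limma fit, and the share of all genes at this cut is not given here.

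Pole2, the second subunit of polymerase epsilon, was at 8.09, 7.89 and 7.99 in KO and at 7.57, 7.58 and 7.56 in WT at 72 h. The groups were apart, by 0.42 (SE 0.10, adjusted p = 0.00543). Mcm2 was at 9.21, 9.001 and 8.95 in KO and at 8.80, 8.64 and 8.75 in WT, a change of 0.33 (SE 0.07, adjusted p = 0.00501) without overlap. Mcm7 was at 9.18, 9.14 and 9.15 in KO and at 8.95, 8.86 and 8.82 in WT. Its change was 0.28 (SE 0.07, adjusted p = 0.0155), with all KO values above all WT values. Prim2, the regulatory subunit of primase, was at 8.92, 8.88 and 8.92 in KO and at 8.67, 8.67 and 8.61 in WT. Its groups did not overlap and its change was 0.26 (SE 0.08, adjusted p = 0.045), but with the array number as a block the adjusted p was 0.0567.

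The other 3 called at 72 h also had KO arrays wholly above WT arrays. Mcm4 was at 9.61, 9.55 and 9.53 in KO and at 9.31, 9.36 and 9.27 in WT, a change of 0.25 (adjusted p = 0.0143). Mcm6 was at 9.74, 9.62 and 9.65 in KO and at 9.43, 9.53 and 9.35 in WT, a change of 0.23 (adjusted p = 0.0299). Pcna was at 10.39, 10.32 and 10.32 in KO and at 10.16, 10.19 and 9.99 in WT, a change of 0.23 (adjusted p = 0.0372).

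Among members that were not called at 72 h, Tyms, thymidylate synthase, had the largest fitted change of the 40 at this time. It was at 7.88, 7.81 and 8.01 in KO and at 7.58, 7.43 and 7.33 in WT, a change of 0.45 with an adjusted p of 0.0607. Fen1, the flap endonuclease of Okazaki fragments, was at 0.39 (adjusted p = 0.133), and Cdt1 at 0.27 (adjusted p = 0.0506). Rfc3 (and Cdc45, at -0.08) had the opposite sign. Rfc3 was at 6.53, 6.52 and 6.64 in KO and at 6.84, 6.82 and 6.96 in WT, with every KO value lower and a change of -0.31 that did not pass the threshold (adjusted p = 0.286). Without KO array 1 at 72 h the count of members called was 1. Without KO array 3 or WT array 1 at 72 h it was 3, and without WT array 3 it was 2.

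**Figure D3:**
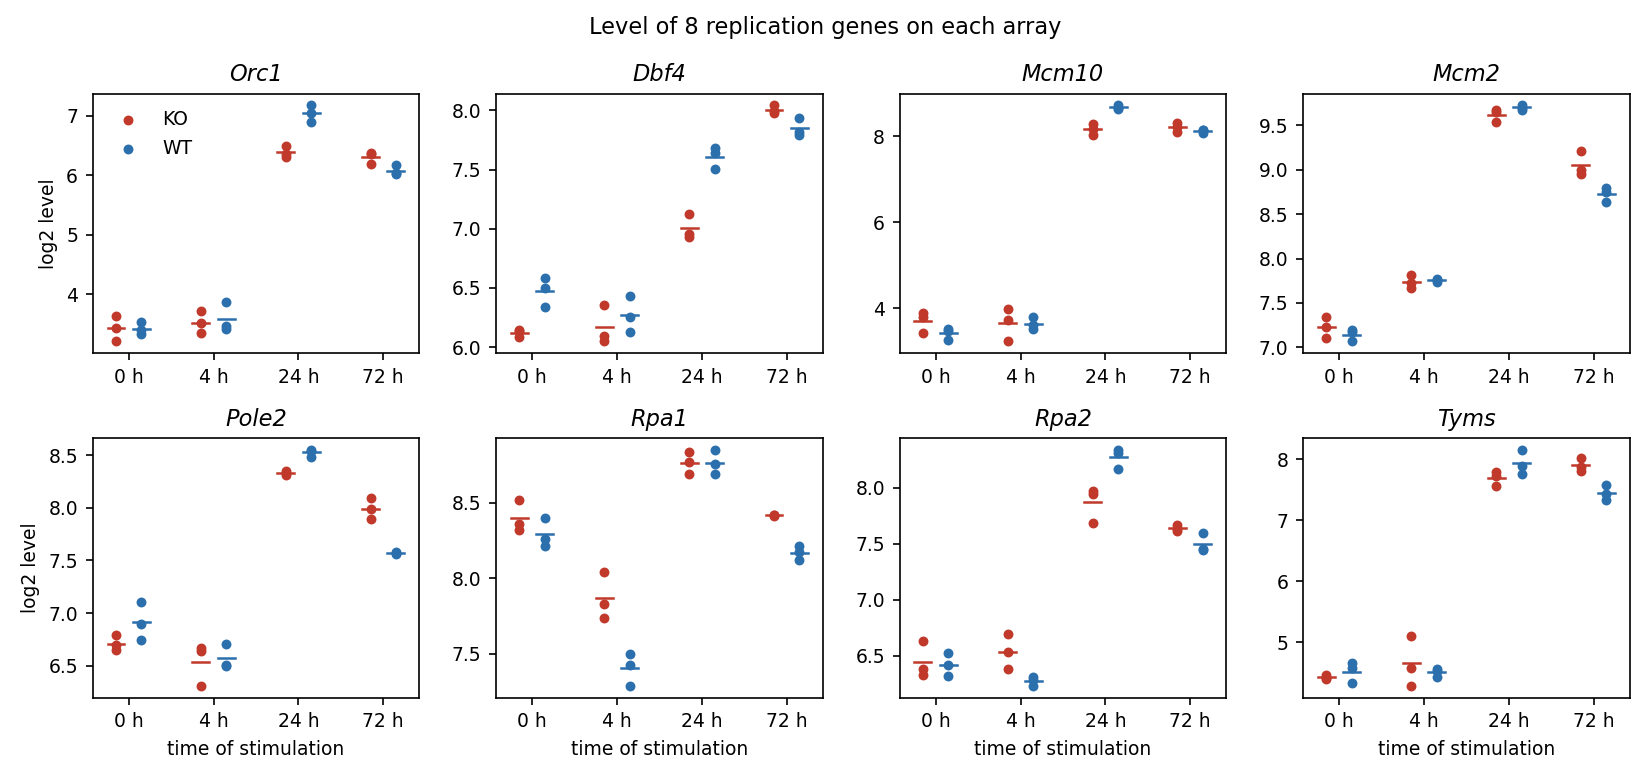
Log2 level of 8 replication genes on each of the 24 arrays by time of stimulation in hours, with KO (red) left of WT (blue); each point is 1 array and each bar the mean of 3. Orc1, Dbf4, Mcm10 and Rpa2 are lower in KO at 24 h, Mcm2 and Pole2 are higher in KO at 72 h, Rpa1 differs at 4 h, and Tyms is highest at 72 h in KO and at 24 h in WT.

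From 24 to 72 h more replication genes passed the threshold as lower in WT than in KO. In KO 13 of the 40 fell and 3 rose, where 8.04% of all genes fell and 9.63% rose. In WT 33 fell and 0 rose, where 15.8% of all genes fell and 11.6% rose; at an unadjusted p below 0.05 the limma fit had 1 WT rise. The median step was -0.16 in KO and -0.55 in WT. All 13 that fell in KO fell in WT as well, 19 fell in WT and were not called in KO, and Rrm1 fell in WT and rose in KO. In WT all 11 licensing genes and all 8 polymerase and primase genes fell. The highest of the 4 time means was at 24 h for 29 members and at 72 h for 11 in KO, against 39 and 1 in WT. The 11 included Dbf4, Cdc7, Mcm10, Orc6, Rrm1, Rrm2 and Tyms, and the 1 WT gene was Dbf4.

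The difference between the genotypes in this step was tested directly. It passed the threshold for 19 of the 40, all with a higher step in KO, while 8.46% of all genes were called and 4.9% were called higher, or 11.5% of the 8460 genes. The median difference was 0.40 over the 40 and 0.06 over all genes. By sign alone it was above 0 in 40 of the 40, against 60.8% of all genes. By role the calls were 7 of 11 licensing genes, 1 of 8 helicase activation genes, 5 of 8 polymerase and primase genes, 2 of 5 clamp and clamp loader genes, 2 of 5 single-strand binding and joining genes, and 2 of 3 deoxynucleotide genes. In 7 of the 24 fits that left out 1 array the count was lower by more than 1.5 times. It was 9 without KO array 1 at 72 h, and 10 or 11 without KO array 1 or 2 at 24 h. It was 12 without KO array 3 at 72 h, WT array 3 at 24 h, or WT array 2 or 3 at 72 h.

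Orc1 had the largest difference. Its step from 24 to 72 h was -0.08 in KO and -0.96 in WT, a difference of 0.88 (SE 0.18, adjusted p = 0.00269). Its KO values at 72 h were 6.36, 6.37 and 6.19, close to those at 24 h, whereas its WT values of 6.05, 6.17 and 6.03 at 72 h lay below those at 24 h. Dbf4 rose by 1.003 in KO and its WT step was 0.24, a difference of 0.76 (SE 0.14, adjusted p = 0.000544). At 72 h it was at 8.04, 7.98 and 7.99 in KO and at 7.94, 7.82 and 7.79 in WT, with every KO value above every WT value. Tyms had a step of 0.21 in KO and of -0.49 in WT, a difference of 0.70 (SE 0.20, adjusted p = 0.0291). Mcm2 had the largest fall in WT, by 0.97, and fell by 0.57 in KO. In each of these 4 genes the KO step was the higher one.

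**Figure D4:**
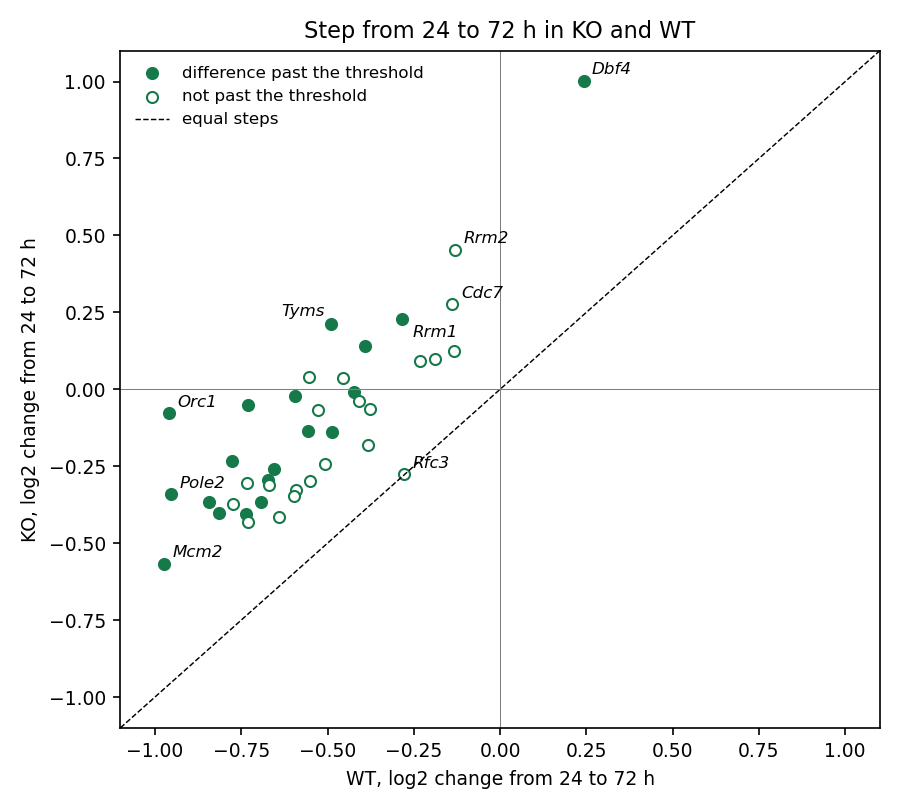
Log2 change from 24 to 72 h of the 40 replication genes, in KO (vertical) against WT (horizontal); filled points are genes whose difference between the genotypes has an adjusted p below 0.05 and the dashed line marks equal steps. All 40 points lie on or above the line, with Rfc3 next to it (difference 0.00) and Orc1 and Dbf4 among the farthest (0.88 and 0.76).

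For 5 of the 19 genes neither the 24 h nor the 72 h comparison of KO with WT passed the threshold, and the call rests on the step alone. These were Orc2, Pola2, Rfc1, Fen1 and Tyms. Rfc1, the large subunit of the clamp loader, was at 8.39, 8.41 and 8.50 in KO and at 8.64, 8.66 and 8.67 in WT at 24 h. At 72 h it was at 8.29, 8.26 and 8.33 in KO and at 8.14, 8.19 and 8.19 in WT. The KO arrays were thus wholly below WT at 24 h and wholly above WT at 72 h, with a difference of steps of 0.35 (SE 0.11, adjusted p = 0.0485). Its call held in 14 of the 36 alternative settings, and with the array number as a block its adjusted p was 0.0538. The call of Pold2 in this step held in 12 of the 36. Over all members 17 of 40 had arrays apart in these directions at both times, and the share of all genes apart at both is not given here. At single times 18.8% of all genes lay wholly below at 24 h and 12.5% wholly above at 72 h. Fen1 had a step of -0.05 in KO and of -0.73 in WT, a difference of 0.68 (SE 0.20, adjusted p = 0.036). Rrm1 rose by 0.23 in KO and fell by 0.28 in WT, a difference of 0.51 (SE 0.10, adjusted p = 0.00115). Cdc7, the kinase that DBF4 activates, rose by 0.28 in KO with a WT step of -0.14, and its difference of 0.41 missed the threshold (adjusted p = 0.055).

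The genotype difference of the earlier steps was called for fewer members. From 4 to 24 h it passed for 3 of the 40, all with a lower step in KO, where 2.23% of all genes were called and 1.58% were called lower. These were Rpa2 at -0.66 (adjusted p = 0.00793), Dbf4 at -0.50 (adjusted p = 0.0483) and Rpa1 at -0.46 (adjusted p = 0.026). Rpa2 was at 6.38, 6.53 and 6.70 in KO and at 6.23, 6.32 and 6.28 in WT at 4 h, with KO higher and the arrays apart, the reverse of 24 h. Rpa1 was higher in KO at 4 h (0.46) and was not lower by more than 0.001 at 24 h (-0.001). From 0 to 24 h 7 had a lower step in KO (5.87% of all genes called, 4.22% lower), with Mcm10 at -0.79 and Orc1 at -0.66 in front. From 0 to 72 h 2 had a higher step in KO (3.91% of all genes called, 1.06% higher), Pole2 at 0.62 and Dbf4 at 0.51. Changes of KO against WT at 0 h are part of these values. At 0 h Mcm10, Rfc2 and Mcm4 were at 0.29, 0.23 and 0.19, none called. Rfc2 and Mcm4 were not called at 24 h either (-0.16 for each). Pole2 was at -0.20 (not called) and Dbf4 at -0.35 at 0 h. The count from 4 to 24 h was 1 without KO array 1 or 2 at 24 h, WT array 1 or 3 at 24 h, or WT array 1 at 4 h. The count from 0 to 24 h was 1 without KO array 1 at 24 h, and 2 to 4 without KO array 2 at 0 or 24 h, WT array 1 at 0 or 24 h, or WT array 3 at 24 h. The count from 0 to 72 h was 1 without KO array 1 or 3 at 72 h, WT array 2 or 3 at 72 h, or array 1 of either genotype at 0 h. These comparisons share arrays with those of single times.

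Other genes of the same pathways were followed as lists. Of 27 further replication genes 1 was higher and 5 were lower in KO at 24 h, where 7.38% of all genes and 16.6% of the 8460 were called lower. The lower ones include Dna2, a flap nuclease (-0.52), Rnaseh2b (-0.43) and Tipin, a fork protection factor (-0.41). At 72 h 2 of the 27 were higher and 0 lower, where 2.56% of all genes and 5.76% of the 8460 were called higher. They were Chaf1b of chromatin assembly (0.35) and Donson (0.25), and the median change over the 27 was 0.05. Chaf1b, followed at 0 and 4 h after its values were seen, was higher in KO at 0 h, at 7.45, 7.61 and 7.73 in KO against 6.66, 6.49 and 6.77 in WT. Its groups did not overlap and its change was 0.96 (adjusted p = 1.43e-07), and at 4 h it was -0.50. Of 3 genes of replication-coupled DNA methylation Dnmt1 was lower at 24 h (-0.19) and none was called at 72 h.

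Of 9 deoxynucleotide genes outside the 40, 1 was higher and 4 were lower in KO at 24 h and 4 were not called, where 11.3% of all genes were called. At 72 h 5 were higher and 2 were lower and 2 were not called, where 6.33% of all genes were called. Dctpp1, a nucleotide pyrophosphatase, changed by -0.50 at 24 h and by 0.51 at 72 h. Shmt1, of the folate cycle that serves thymidylate synthesis, changed by -0.49 at 24 h and by 0.42 at 72 h, and Dut, the dUTPase, by 0.48 at 72 h. Samhd1, which breaks deoxynucleotides down, ran the other way. At 24 h it was at 10.94, 10.54 and 10.60 in KO against 9.93, 9.99 and 9.91 in WT, a change of 0.75 (adjusted p = 8.61e-07). At 72 h it was at 10.32, 10.29 and 10.44 in KO against 10.82, 10.86 and 10.85 in WT, a change of -0.49 (adjusted p = 0.000208). Its arrays did not overlap at either time.

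Regulators of the G1 to S transition gave this picture at 24 h. At this time 11.3% of all genes were called, and of the 8460 genes 9.01% were called higher and 16.6% lower. Of 13 E2F and retinoblastoma genes 2 were higher and 4 were lower in KO, with E2f3 at -0.59, E2f8, an E2F repressor, at -0.54 and Rbl2 (p130) at 0.54. E2f1 was not called at any time and changed by -0.08 at 24 h. Myc, a growth regulator that T cell activation raises, was lower in KO at 0 h (-0.54), 4 h (-0.33) and 24 h (-0.44), with adjusted p-values of 0.000346, 0.0312 and 0.00137 in limma. At 72 h its change was -0.19 (adjusted p = 0.297). Of 12 G1 to S kinases, cyclins and inhibitors 1 was higher and 4 were lower. Cdkn1b, the inhibitor p27, was at 7.31, 6.89 and 6.82 in KO against 5.85, 5.93 and 6.03 in WT, without overlap and with a change of 1.07 (adjusted p = 2.09e-06). Ccna2 and Ccne1, cyclins A2 and E1, were at -0.53 and -0.52. At 72 h 0 of the 13 were called, where 6.33% of all genes were called. Of the 12 Cdk4 was higher (0.23) while Cdkn1a (p21, -0.64) and Ccnd3 (cyclin D3, -0.48) were lower.

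A list of 15 mitosis genes had higher medians at 72 h than at 24 h in both genotypes. Their array median was 6.74 to 6.88 in KO and 7.004 to 7.37 in WT at 24 h, and 8.94 to 9.11 in KO and 8.95 to 9.05 in WT at 72 h. Of the 15, 2 were lower in KO at 24 h, Cdk1 at -0.68 and Bub1b at -0.41. At that time 7.38% of all genes and 16.6% of the 8460 were called lower. At 72 h 0 of the 15 were called in limma, where 6.33% of all genes were called. Mki67, the proliferation marker, was higher in KO at 0 h (0.54) and 4 h (0.46) and not called at 24 h (-0.19) or 72 h (0.17).

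Markers of other cells moved with genotype. All 8 B cell markers had a higher mean in KO at 24 h and at 72 h, with 1 and 0 past the threshold. Their summed level, on the log2 scale, was 7.31 to 8.04 in KO against 6.85 to 7.12 in WT at 24 h, and 7.49 to 8.07 in KO against 7.09 to 7.15 in WT at 72 h. Of 8 myeloid markers 3 were higher in KO at 0 h and at 4 h (Lyz2, S100a8 and S100a9) and 0 at 24 and 72 h. Both CD8 T cell markers had a lower mean in KO at 24 and 72 h, with Cd8b1 past the threshold at each (-0.41 and -0.65). Their summed level was 5.99 to 6.23 in KO against 6.36 to 6.52 in WT at 24 h, and 5.86 to 6.12 in KO against 6.45 to 6.74 in WT at 72 h. The summed level of 4 natural killer markers was 5.08 to 5.37 in KO against 5.61 to 5.79 in WT at 24 h, and 5.22 to 5.34 in KO against 7.05 to 7.54 in WT at 72 h. Of the 4, Eomes, a transcription factor that activated T cells can also express, was called lower at 24 h (-0.92) and 72 h (-3.15), and the other 3 were not called. Neither of 2 platelet markers was called at any time. The part of these markers in the results was not tested.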

How the data were processed

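RNA of 24 samples in 8 groups of 3, grouped by their titles, was measured on Affymetrix arrays. The deposited values are log2 intensities that, per the submitters' processing notes, the authors made with RMA in oligo (R 3.1.0). RMA gives all arrays nearly 1 distribution, which hides a shift common to all genes, and there are no detection calls. Precision is limited by the number of arrays.

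Names of the 41345 probe sets came from GEO's platform annotation, in which 25335 stand. Of these 23521 have 1 gene symbol and 1814 have several, and 16010 are not listed there. By Entrez ID 23328 matched RefSeq (GRCm38.p6). For 1082 genes with several probe sets, 5 members among them, the one with the highest mean was used, which left 22180 genes. Array medians were 3.59 to 3.76, 0 columns were identical, and the highest correlation of 2 arrays was 0.992.

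Using limma 3.58.1 in R 4.3.3, 8 group means were estimated over all arrays, with eBayes and a mean-variance trend (16 residual and 8.81 prior degrees of freedom). Tests are two-sided with Benjamini-Hochberg adjustment over all genes within a contrast and a threshold of 0.05. The script was tested on simulated data. The members, roles and lists were chosen with earlier results of these data known. Values on every array were given for the 4 largest changes past the threshold of KO against WT at each time and the leaders of steps and differences, and other members were added where a result turned on them. Of other lists, up to 3 genes with the largest change past the threshold at 24 and at 72 h were named, plus E2f1, Mki67, Myc and Trim28. Some listed genes are not reported here. The E2F windows, Chaf1b at 0 h and the second probe sets of Pole, Rrm2, Rpa1 and Rpa3 were chosen after values were seen.

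Xist was at 9.61 to 10.3 on arrays numbered 1 or 2 and at 3.03 to 4.79 on arrays numbered 3, where the Y-linked Uty was at 6.12 to 6.87, so the shared numbers mark sex in both genotypes. Deviations from the group mean of same-numbered KO and WT arrays at 1 time correlated at 0.098 to 0.316 across genes (12 pairs), and those of other numbers at -0.218 to 0.074. At each of 0, 4, 24 and 72 h every same-numbered pair correlated more highly than every pair of other numbers. The numbers pair the samples by this check at each time, with the lowest same-numbered value (0.098) at 4 h. Same-numbered arrays of a genotype at 2 times correlated at 0.089 to 0.405 in KO and 0.046 to 0.291 in WT (18 pairs each). The main fit has no term for the number, in steps or at single times. Alternatives tried were averaging of probe sets, a filter on level, quantile normalization again, centring, only the groups compared, no trend, robust eBayes, array weights, arrays 1 and 2 alone, the array number as a fixed block or with genotype as a random block, and leaving out each array.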

Additional observations from a re-analysis of the deposited data

Results flagged for a closer look

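The tests of the genotype difference in a step, KO step minus WT step in log2, are listed here because each found the response to differ between the genotypes at an adjusted p below 0.05 in limma. From 24 to 72 h 19 of the 40 replication genes had a higher step in KO (8.46% of all genes were called in either direction). Among licensing genes these were Orc1 at 0.88, Orc6 at 0.53, Orc2 at 0.41, Mcm2 at 0.41, Mcm4 at 0.41, Mcm6 at 0.33 and Mcm7 at 0.33. Of helicase activation Dbf4 was at 0.76. The polymerase and primase genes were Pole2 at 0.61, Pola1 at 0.57, Prim2 at 0.48, Pold2 at 0.42 and Pola2 at 0.38. Pcna was at 0.40 and Rfc1 at 0.35. Fen1 was at 0.68 and Rpa2 at 0.54. Tyms was at 0.70 and Rrm1 at 0.51.

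From 4 to 24 h 3 genes had a lower step in KO, Rpa2 at -0.66, Dbf4 at -0.50 and Rpa1 at -0.46 (2.23% of all genes called). From 0 to 24 h 7 genes had a lower step in KO (5.87% of all genes called). These were Mcm10 at -0.79, Orc1 at -0.66, Rrm1 at -0.49, Pold2 at -0.47, Orc6 at -0.43, Rfc2 at -0.39 and Mcm4 at -0.35. From 0 to 72 h 2 genes had a higher step in KO, Pole2 at 0.62 and Dbf4 at 0.51 (3.91% of all genes called). All of these share arrays with the comparisons of KO with WT at single times. A step difference also holds the KO against WT change at its start, as for Rpa1 at 4 h (0.46) and Dbf4 at 0 h (-0.35).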

How the results depend on the processing

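The direction of the median member change at 24 and 72 h was the same in all 36 alternatives. The count at 72 h was 7 and became 12 with genes below the 40th percentile of level left out, 17 with only the groups compared, 14 with array weights, 4 with no trend and 0 with arrays 1 and 2 alone. With only the groups compared, the counts at 0 and 4 h were 0, the WT count from 0 to 4 h was 17, and the genotype difference from 4 to 24 h had 1. With no trend the count at 0 h was 0, and the differences from 4 to 24 h and from 0 to 24 h had 1 and 4. With quantile normalization again these 2 differences had 0 and 3, and the median change at 24 h was -0.13. The mean of probe sets left 0 at 4 h, and array weights left 1 in the difference from 4 to 24 h. With arrays 1 and 2 alone the count at 0 h was 0 and the KO count from 24 to 72 h was 9. The differences from 4 to 24, 24 to 72, 0 to 24 and 0 to 72 h then had 0, 5, 3 and 0. The array number as a replicate block changed the count to 6 at 72 h (Prim2, adjusted p = 0.0567), to 25 in the WT step from 0 to 4 h and to 18 in the difference from 24 to 72 h (Rfc1, adjusted p = 0.0538), and left the other counts as they were. As a random block with genotype it gave 2 in the difference from 4 to 24 h and 18 from 24 to 72 h.

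A fit with KO array 2 standing alone for KO was chosen after seeing the data, and its spread is assumed to be that of the other groups. It has the lowest B cell marker sum of the KO arrays, which at 24 and 72 h still exceeds that of every WT array, so the fit does not remove that difference. It gave counts of 0, 0, 1 and 0 at 0, 4, 24 and 72 h. It gave KO counts of 12 from 0 to 4 h and 4 from 24 to 72 h, and 0, 0, 1 and 0 for the differences from 4 to 24, 24 to 72, 0 to 24 and 0 to 72 h.

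Leaving out 1 array at a time gave 0 to 1 member at 0 h, 1 to 1 at 4 h, 5 to 11 at 24 h and 1 to 9 at 72 h. For the steps it gave 17 to 22 in KO and 21 to 26 in WT from 0 to 4 h, 39 to 40 in KO and 40 to 40 in WT from 4 to 24 h, and 12 to 21 in KO and 30 to 34 in WT from 24 to 72 h. The genotype difference had 0 to 0, 1 to 4 and 9 to 22 members in these 3 steps, 1 to 8 from 0 to 24 h and 1 to 2 from 0 to 72 h. The lowest values at 24 h (5) and from 0 to 24 h (1) came without KO array 1 at 24 h, and those at 72 h (1) and from 24 to 72 h (9) without KO array 1 at 72 h. The median member change ranged over 0.03 to 0.08, -0.06 to 0.04, -0.24 to -0.18 and 0.16 to 0.20 at 0, 4, 24 and 72 h. With 3 arrays a group, changes of the size of the median were called for few genes, and low signals are compressed by RMA.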
